A study of Mus musculus with 8 samples.

Results

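The regions described here lie within 5 Mb of the distal end of mouse chromosomes 1 to 19, the telomeric end opposite the centromere. They are the 519 lines, of 12594 in the authors' 2 deposited lists and 12520 on these chromosomes, whose end coordinate falls in that window on the mm10 build. Position alone chose them, so the list that holds a region, its width and its genes were not used in the choice. Of the 519 regions, 338 were in the list of raised CMS-IP signal in Ogt iKO against control and 181 in the list of lowered signal. They are called higher and lower regions here.

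CMS-IP recovers DNA fragments that carry 5-hydroxymethylcytosine (5hmC) with an antibody to the product that bisulfite makes from this base. The cells were mouse embryonic stem cells with floxed alleles of Ogt (Ogt fl/fl), grown over mitomycin C-treated embryonic fibroblasts. Ogt iKO cells were kept with 4-hydroxytamoxifen (4-OHT) for 6 days and sorted by flow cytometry for YFP. Control cells were Ogt fl/fl cells without 4-OHT, and the labels state the YFP selection for treated cells only. The labels name CD90.2 as the marker kept for stem cells and CD326 as the one used against feeders, while CD326 (EpCAM) is a surface protein that embryonic stem cells carry. The lists hold no values that show which cells were sorted. Each state gave 2 CMS-IP and 2 input libraries, 8 in all, so 4-OHT and the YFP sort cannot be told apart from the loss of Ogt in these lists. The labels give 1 cell type and no clone, and they do not say whether the 2 libraries of a group came from separate cultures. The lists hold positions only. Depth, fold change and replicate error of each region are therefore unknown, and the intervals and p-values below run across regions, genes or chromosomes, which are not replicates of a condition.

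TET dioxygenases make 5hmC by oxidising 5-methylcytosine, and OGT, the enzyme that places O-GlcNAc on nuclear and cytoplasmic proteins, binds TET proteins in embryonic stem cells. In such cells 5hmC is found mostly in gene bodies and at enhancers, and CpG-rich promoters hold little of it. Mouse chromosomes carry the centromere at one tip, so the distal tip is the only one that passes from ordinary genes through subtelomeric sequence to the telomere repeats.

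Annotated gene starts were rarely covered by the distal regions, and the few that were are shown because they are the places where a region and a defined regulatory sequence meet. Of 1744 RefSeq promoters in these windows (300 bases, 250 before the start and 50 after it), 5 overlapped a region, 0.287%, against 159 of 29652, 0.536%, elsewhere on the autosomes. The promoter table held 18 of the 19 chromosomes. The 250 bases before the start of 4 of them follow, 5′ to 3′ on the strand of the gene, from the RefSeq table for GRCm38.p6, with each CG in capitals, since CG is the sequence at which most cytosine methylation sits.
Zfp660, chr9:122902998-122903247, plus strand: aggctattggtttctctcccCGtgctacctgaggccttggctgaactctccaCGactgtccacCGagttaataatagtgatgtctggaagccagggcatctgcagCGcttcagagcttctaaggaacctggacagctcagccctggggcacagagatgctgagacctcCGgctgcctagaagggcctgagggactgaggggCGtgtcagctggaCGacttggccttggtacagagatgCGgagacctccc
Pnlip, chr19:58670115-58670364, plus strand: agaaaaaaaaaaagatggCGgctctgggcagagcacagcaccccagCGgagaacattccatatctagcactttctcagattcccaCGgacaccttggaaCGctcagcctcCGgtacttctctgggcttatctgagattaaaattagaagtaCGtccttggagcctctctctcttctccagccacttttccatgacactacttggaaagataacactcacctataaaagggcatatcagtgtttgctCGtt
Lyzl4os, chr9:121586770-121587019, plus strand: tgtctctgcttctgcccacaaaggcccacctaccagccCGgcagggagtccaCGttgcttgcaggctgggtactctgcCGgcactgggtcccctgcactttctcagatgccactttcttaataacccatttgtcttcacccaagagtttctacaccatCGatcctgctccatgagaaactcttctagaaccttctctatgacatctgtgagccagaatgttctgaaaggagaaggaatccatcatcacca
Gm31091, chr10:127878536-127878785, minus strand: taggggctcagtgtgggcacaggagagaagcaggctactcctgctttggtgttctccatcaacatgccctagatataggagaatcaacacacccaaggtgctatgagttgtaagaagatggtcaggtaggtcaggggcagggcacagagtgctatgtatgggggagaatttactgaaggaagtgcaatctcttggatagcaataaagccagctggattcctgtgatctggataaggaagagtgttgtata

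The promoter of Zfp660, a zinc finger protein gene, lay wholly within a lower region of 1596 bp, chr9:122902590-122904185, and its 300 bases held 10 CG. The promoter of Pnlip, which encodes pancreatic lipase, lay wholly within a higher region of 802 bp and held 11 CG. A lower region of 629 bp covered the first 130 bases of the sequence shown for Lyzl4os, an antisense transcript near Lyzl4, whose promoter held 6 CG. The promoter of the long noncoding RNA Gm31091 lay within a lower region of 1074 bp and held no CG on either strand. The fifth, Gm46650, met a higher region over 17 bases after its start only. Over all 31396 autosomal promoters of this length the median was 7 CG, 94.8% held at least 1 and 44.0% held at least 10. So 3 of the 5 were overlapped by a lower and 2 by a higher region, and their CG numbers ran from none to a little above the middle of all promoters.

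Regions were about as dense at the distal ends as elsewhere. The last 5 Mb held 5.46 regions per Mb over the 19 chromosomes and the rest 5.19, where the rest leaves out the first 3 Mb of each chromosome, which are unassembled in mm10. Higher regions stood at 3.56 per Mb in both places. Lower regions stood at 1.91 per Mb at the distal ends and 1.64 in the rest. The comparison was then made within chromosomes. Higher regions were denser at the distal end on 9 of 19 chromosomes, with a median ratio of distal to rest of 0.98 (range 0.100 to 1.87, two-sided exact sign test, p = 1). Lower regions were denser there on 13 of 19, with a median ratio of 1.23 (range 0.0977 to 2.21, two-sided exact sign test, p = 0.167). The sign test thus called a difference in density for neither list. It counts chromosomes and does not use the size of the differences, so it does not show that the densities are equal.

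**Figure D1:**
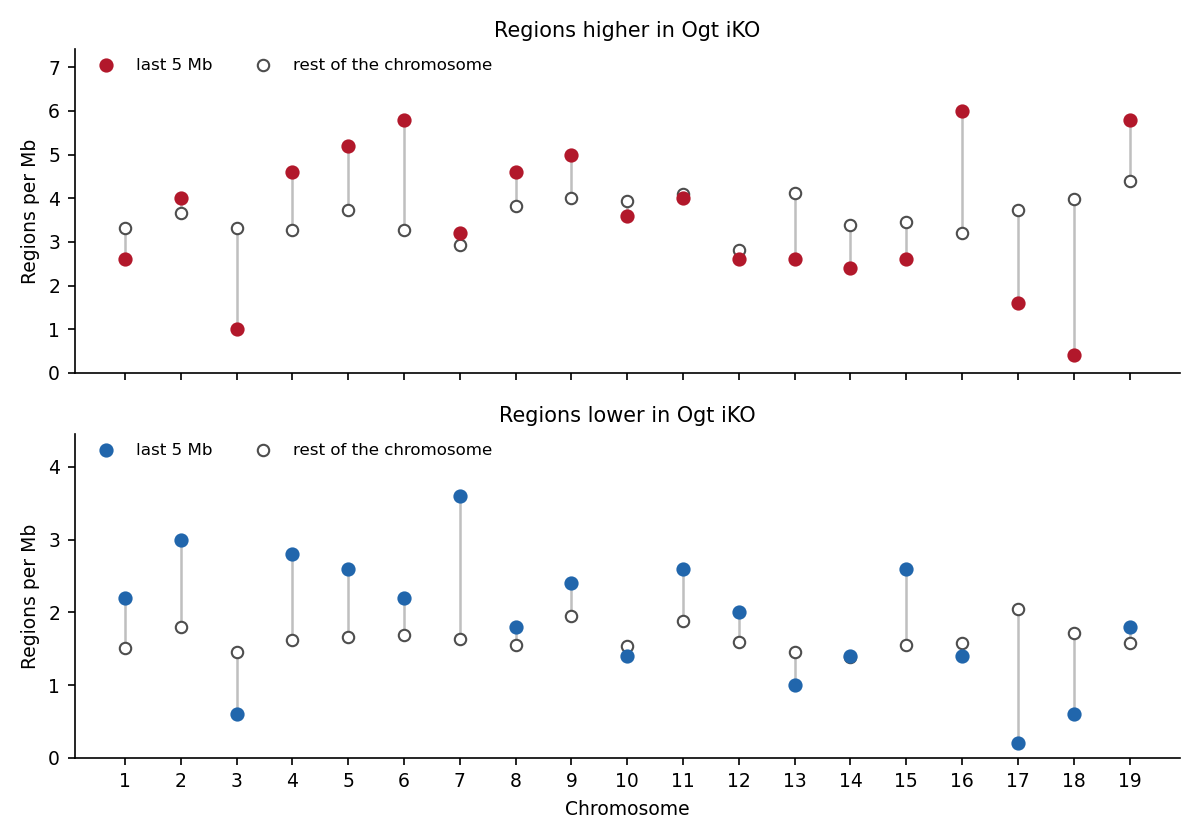
Regions per Mb (vertical axes, from 0) on each autosome for the higher list (upper panel) and the lower list (lower panel), in the last 5 Mb (filled points) and in the rest of the same chromosome (open points), joined by a line. The distal values spread from 0.4 to 6.0 per Mb for higher regions, while the rest of the chromosomes lies between 2.82 and 4.40.

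Single chromosomes differed far more at their distal ends than over the rest of their length. The count of both lists ran from 1.0 per Mb on chromosome 18, with 5 regions, to 8.0 per Mb on chromosome 6, with 40. The rest of the chromosomes lay between 4.41 and 5.98 per Mb. A window of 5 Mb is short beside the rest of a chromosome, so a wider spread is a property of the comparison as well. Set among 5 Mb windows tiled back from the end, the distal window of chromosome 6 ranked 1 of 29, and those of chromosome 17 (rank 18 of 18) and chromosome 18 (rank 17 of 17) were the lowest of theirs. Chromosome 3, with 8 regions, ranked 27 of 31.

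The sparse ends had few genes. The last 5 Mb of chromosome 17 held 4 protein-coding genes and 9 regions, 8 higher and 1 lower, none of them in a protein-coding gene. All but 1 lay between annotated genes of any kind, and 6 of the 9 had Adcyap1, which encodes the neuropeptide PACAP, as the nearest protein-coding gene, at 115 to 737 kb, a gene named after its values were seen. The end of chromosome 18 held 8 protein-coding genes and 5 regions, 2 higher and 3 lower, again none in a protein-coding gene. The end of chromosome 10 was rich in genes but not in regions, with 5.0 regions per Mb against 5.48 in the rest of it. It had 162 protein-coding genes in its last 5 Mb, 32.4 per Mb, with 25 regions, while the rest of that chromosome had 6.84 genes per Mb. Over the 19 chromosomes the number of regions per protein-coding gene was above that of the rest on 8 (two-sided exact sign test, p = 0.648), and the median ratio was 0.821.

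**Figure D2:**
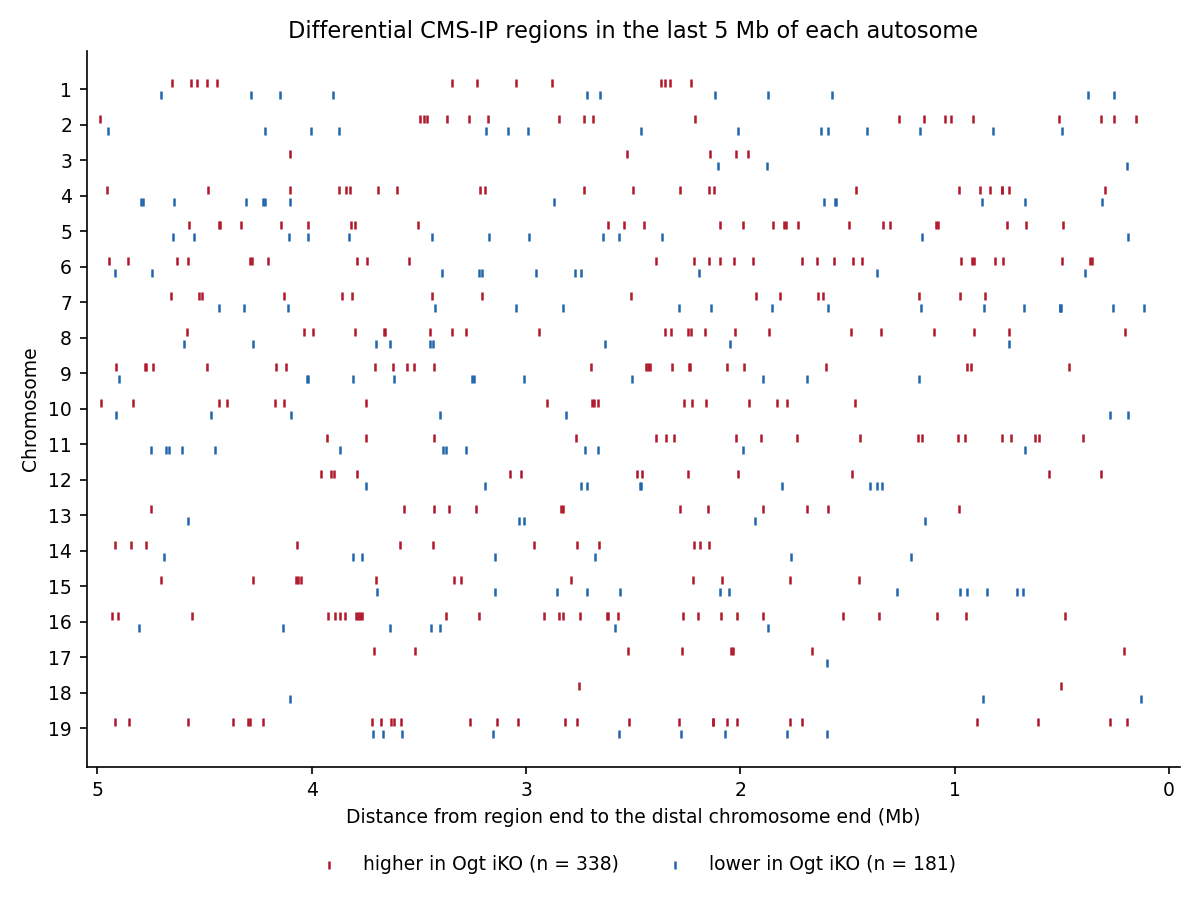
Each tick is 1 of the 519 regions, placed by the distance in Mb from its end to the distal chromosome end (horizontal axis, telomeric end at the right) on its chromosome (vertical axis), with 338 higher regions in red above 181 lower regions in blue. Chromosomes 3, 17 and 18 carry 8, 9 and 5 ticks, and chromosome 14 carries none within 1 Mb of its end.

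Regions reached close to the tips. The outermost region lay 117 kb from the end on chromosome 7 and 1204 kb on chromosome 14, with a median of 259 kb over the 19 chromosomes. It was higher on 11 chromosomes and lower on 8, while 68.4% of all autosomal regions were higher. A difference from that share was not tested. The outermost region of chromosome 7 was a lower region of 200 bp, chr7:145324134-145324333, within 1 kb of an end of Mrgprd, a receptor gene of sensory neurons. On chromosome 5 it was a lower region in Rfc3, a subunit of the clamp loader of DNA replication. On chromosome 10 a lower region of 341 bp lay 5.72 kb from Vmn2r87, a vomeronasal receptor gene.

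Counted by Mb from the end, the first Mb held 77 regions on 18 of the 19 chromosomes, 4.05 per Mb. The next 4 held 87, 134, 119 and 102. From 5 to 20 Mb the values moved between 4.42 and 7.0 per Mb. The last 2 Mb thus held fewer regions than the 3 Mb before them, and the value of the third Mb, 7.05, was above every other of the 20. The share of higher regions was 63.6% (95% Wilson interval 52.5 to 73.5) in the last Mb and 70.9% (62.7 to 77.9) in the third, with intervals that overlap. These values per Mb are given as a description. The lengths end at the assembly's last base, and on each chromosome the last annotated gene ended 101 to 225 kb before it.

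**Figure D3:**
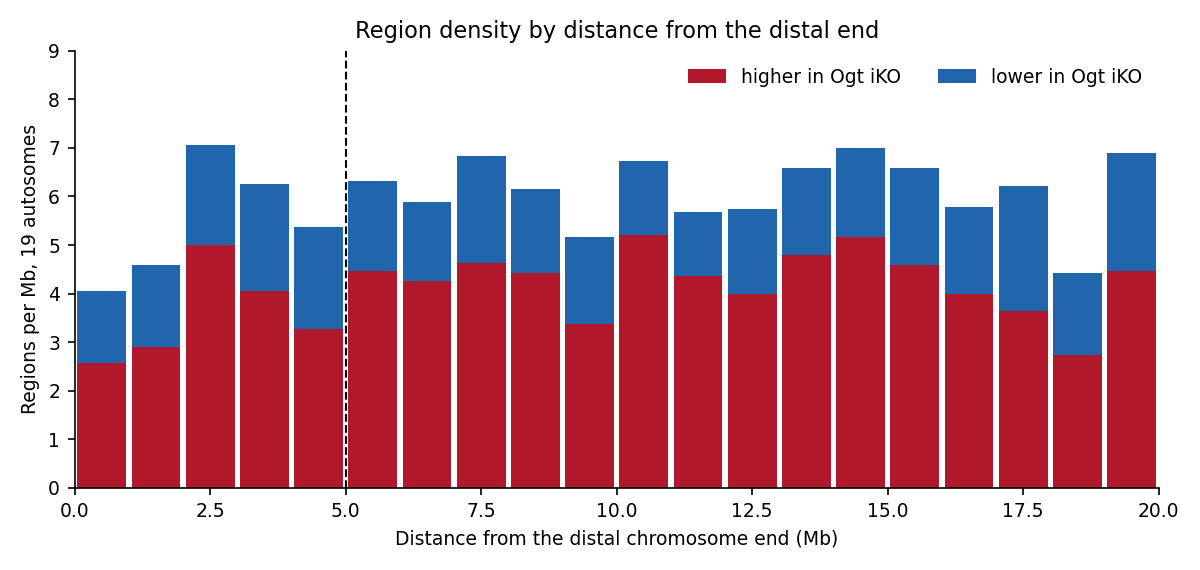
Regions per Mb summed over 19 autosomes (vertical axis, from 0), in steps of 1 Mb from the distal end (horizontal axis), with higher regions (red) below lower regions (blue) in each bar and a dashed line at 5 Mb. The first bars reach 4.05 and 4.58 per Mb and the third 7.05.

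The cut at 5 Mb fell in no gap. The members farthest from the end were 3 higher regions at 4954 kb (in Camta1, on chromosome 4), 4984 kb (chromosome 10) and 4989 kb (chromosome 2). The first regions beyond it were 2 higher regions at 5036 kb (chromosome 10) and 5046 kb (chromosome 9) and 1 lower region at 5059 kb (chromosome 9).

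The balance of direction was close to that of the rest of the autosomes. Higher regions made up 65.1% of distal regions (338 of 519, 95% Wilson interval 60.9 to 69.1) and 68.5% of the rest (8221 of 12001, 67.7 to 69.3). Over all autosomal regions 68.4% were higher. With chromosomes as strata, the odds ratio was 0.857 (95% interval 0.709 to 1.04, exact Mantel-Haenszel test, p = 0.110), and an odds ratio under 1 means fewer higher regions at the distal end. The interval includes 1. Without chromosome 16, whose distal end was rich in higher regions, the odds ratio was 0.810 (p = 0.0347 by the same exact test). Leaving out any other chromosome gave p from 0.0548 to 0.269 by that exact test. Chromosome 16 is thus singled out by its own balance of direction, and its run is no separate evidence of a difference. Distal regions were also set against the first 5 Mb of assembled sequence at the other tip, which held 449 regions, 70.4% of them higher. The odds ratio was 0.742 (95% interval 0.554 to 0.992, exact Mantel-Haenszel test, p = 0.0393), and the call was lost in all 4 alternatives run. The odds ratio stayed near that size with windows of 2 Mb (0.703) and with clusters (0.75), which count fewer regions, and was nearer to 1 with wider regions (0.813) and with windows of 10 Mb (0.935). Both tests count neighbouring regions as independent, which they may not be.

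Within chromosomes, the share of higher regions was below that of the rest on 12 of 19 (two-sided exact sign test, p = 0.359). Fisher's exact test passed an adjusted p of 0.05 on 0 chromosomes (0% of 19) and an unadjusted p of 0.05 on 1, chromosome 7. There 16 higher and 18 lower regions gave 47.1% (95% Wilson interval 31.5 to 63.3) against 64.3% (60.5 to 68.0) in the rest of the chromosome, with p = 0.0458 and an adjusted p of 0.495 by Fisher's exact test. Chromosome 15 had 13 of each, 50.0% against 69.0%, with p = 0.0521 by the same exact test. Chromosome 16 had 30 higher and 7 lower, 81.1% against 67.1%, with p = 0.0976 by the same exact test. Chromosome 17 had the highest share, 88.9%, on 9 regions, and chromosome 18 the lowest, 40.0%, on 5.

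**Figure D4:**
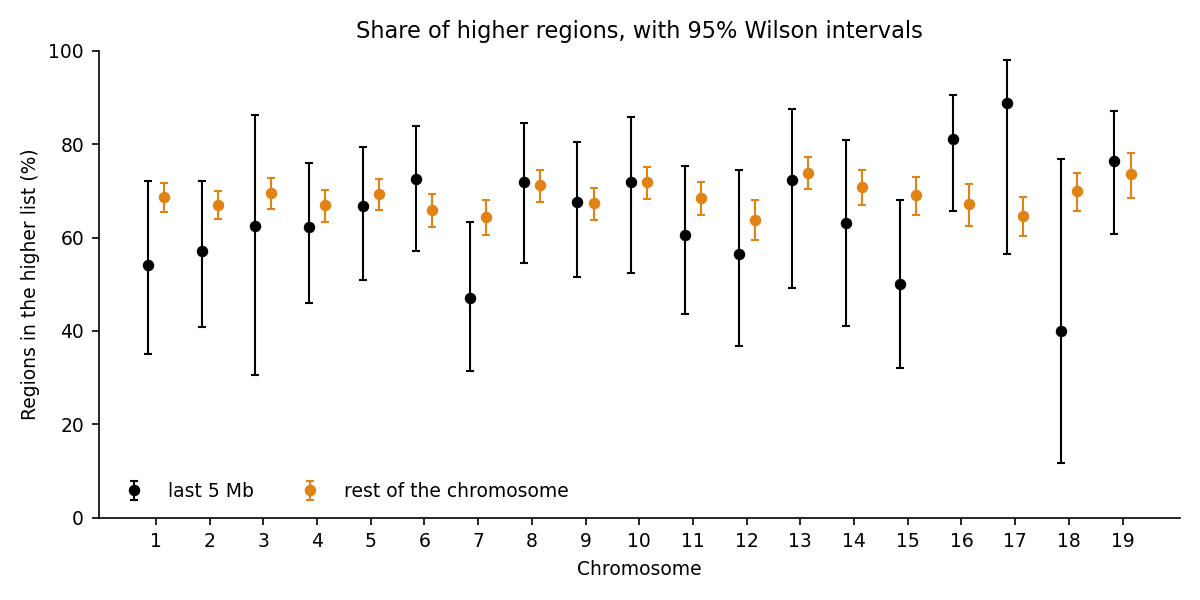
Share of regions in the higher list (vertical axis, 0 to 100%) on each autosome, for the last 5 Mb (black) and the rest of the chromosome (orange), with 95% Wilson intervals that cover counting error only. Distal shares run from 40.0% on chromosome 18 to 88.9% on chromosome 17, and their intervals are wide because each rests on 5 to 40 regions.

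Within each list, widths at the distal ends were near those of the rest. Distal higher regions had a median width of 503.5 bp (quartiles 270.75 and 869.5) against 545 bp in the rest, and distal lower regions 317 bp (quartiles 214 and 567) against 321 bp. The distal median was the larger on 8 of 19 chromosomes for each list (two-sided exact sign test, p = 0.648 for both). Many regions sit at 200 bp, the narrowest width in the lists: 39 distal higher regions (11.5%) and 36 distal lower regions (19.9%). With those left out, distal higher regions were the wider on 4 of 19 chromosomes and the narrower on most (two-sided exact sign test, p = 0.0192). This passes the threshold, but it is 1 of the 51 alternatives run, with no correction for their number. With windows of 10 Mb and all widths kept, distal higher regions were the wider on 11. All distal regions together covered 325 kb, 0.342% of the windows, against 0.362% in the rest.

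The widest distal regions were higher ones. The first, 5579 bp at chr8:127073563-127079141, lay in Pard3, which encodes a cell polarity scaffold. A region of 3912 bp on chromosome 10 lay between genes, 33.9 kb from Ctdsp2. Then came 3780 bp in Ssu72, a phosphatase of RNA polymerase II, 3672 bp in Atrnl1 and 3296 bp in Kcnj6, which encodes a G protein-gated potassium channel. The widest lower regions were shorter. They were 1789 bp in Cars, a cysteinyl-tRNA synthetase gene, 1596 bp over the start of Zfp660, 1525 bp between genes and 2.84 kb from the stress factor gene Atf3, 1383 bp in Hes3, a Notch pathway repressor, and 1365 bp in Shank2, a scaffold of excitatory synapses. No region in the distal windows came near the longest of the rest, 38197 bp.

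Placement relative to genes was like that of the rest. Of the 519 midpoints, 286 (55.1%) lay inside a gene of any type, 52 (10%) within 1 kb of a gene end and 181 (34.9%) between genes. In the rest these shares were 56.4%, 8.56% and 35.0%. The exact Mantel-Haenszel odds ratios were 0.929 (95% interval 0.775 to 1.11), 1.19 (0.869 to 1.60) and 1.01 (0.838 to 1.23), with adjusted p-values of 0.659, 0.659 and 0.887. The gene table has spans without exons, so exons, introns and untranslated parts are not told apart here.

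Pooled over chromosomes, protein-coding genes at the distal ends held a region less often than those elsewhere. Single chromosomes went both ways, as on chromosome 5 (41.0% distal, 23.3% in the rest) and chromosome 13 (11.5% and 22.9%). With spans extended by 1 kb, 187 of 1087 distal genes (17.2%) held the midpoint of a region, against 4239 of 19578 (21.7%) in the rest, and 21.4% over all autosomal protein-coding genes. The exact Mantel-Haenszel odds ratio was 0.771 (95% interval 0.651 to 0.910, p = 0.00175). For higher regions the shares were 12.5% and 16.3% (all autosomal genes 16.1%), with an odds ratio of 0.755 (0.622 to 0.911, exact test, p = 0.00289). For lower regions they were 7.45% and 8.93% (all 8.85%), with an odds ratio of 0.851 (0.664 to 1.08, exact test, p = 0.192), and whether the lists differ in this was not tested. The call rested on chromosome 10. There 10 of its 162 distal genes (6.17%) held a region, against 24.9% in the rest of it. Without chromosome 10 the odds ratio was 0.90 (95% interval 0.755 to 1.07, exact test, p = 0.237).

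Leaving out receptor families or short genes changed the odds ratio little. Olfactory and vomeronasal receptor genes made up 6.81% of distal protein-coding genes (74, of which 62 were on chromosome 10) and 7.06% of those in the rest (1382). Of these, 1 distal gene and 12 genes in the rest held a region. Without such genes, in both places, the odds ratio was 0.765 (95% interval 0.645 to 0.903, p = 0.00126, exact Mantel-Haenszel test). The 26 distal keratin genes were all on chromosome 15, where 2 held a region and where 13 of 130 distal genes (10%) did against 24.1% in the rest. Distal protein-coding genes had a median length of 14.3 kb and those of the rest 17.7 kb, while the genes with a distal region had a median of 52.5 kb. Among genes of 10 kb or longer the odds ratio was 0.781 (95% interval 0.647 to 0.939, exact test, p = 0.00790). Genes above 10 kb were not matched for length, and gene length as a cause was not tested.

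Counted the other way, from the 519 regions, 288 had their midpoint in a protein-coding gene or within 1 kb of one, and 231 (44.5%) did not. They fell in 188 protein-coding genes, a count that includes genes that reach over the 5 Mb line. Of these, 106 held higher regions only, 51 lower only and 31 both. A single region was held by 123 genes, 2 by 42 and 3 or more by 23. Those 23 were on 12 chromosomes. Higher regions outnumbered lower ones in 17 of them, lower outnumbered higher in 4 and 2 had as many of each. Both splits stand beside 65.1% higher among the distal regions and 68.4% among all autosomal regions. The same splits for genes in the rest are not given. The genes differ in length and neighbouring regions may not be independent, so these counts are a description.

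**Figure D5:**
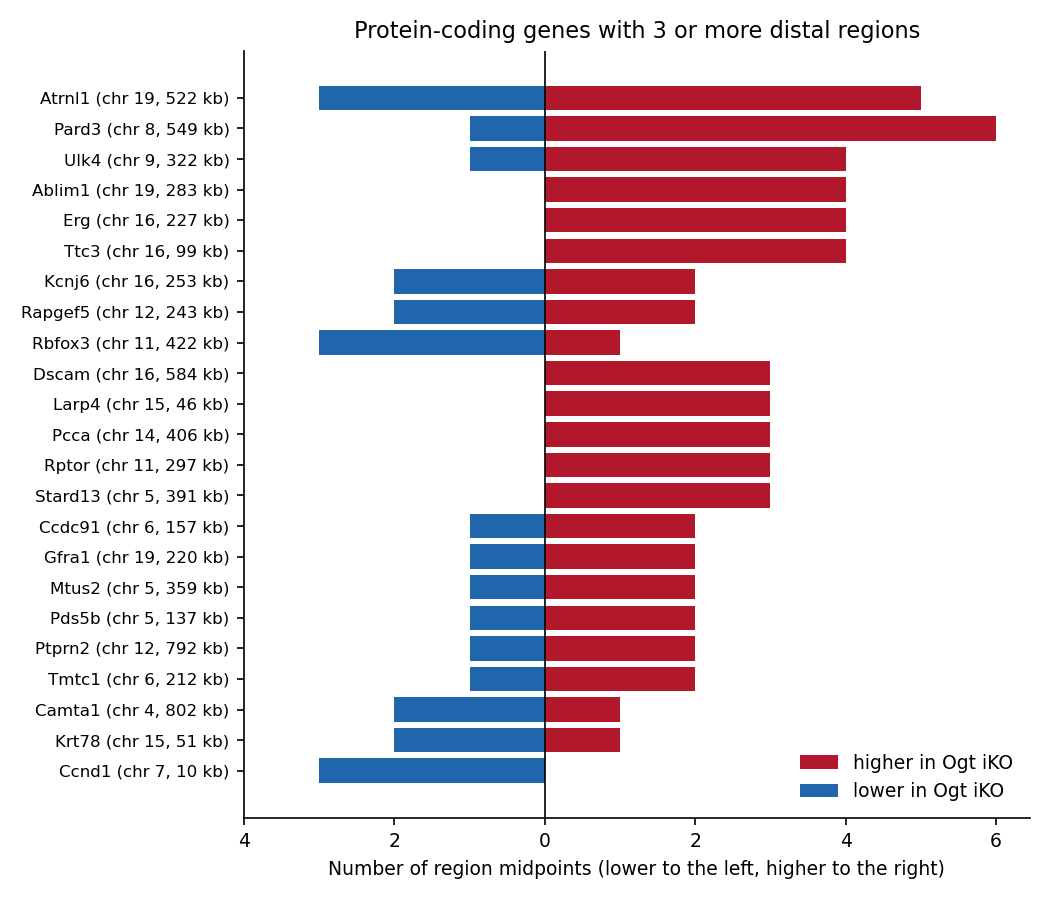
The 23 protein-coding genes with 3 or more distal region midpoints (vertical axis, with chromosome and gene length), as the number of higher regions to the right and lower regions to the left of 0 (horizontal axis). Ccnd1 alone among them has lower regions only, and 8 genes have higher regions only.

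Atrnl1 and Pard3 held the most regions of the 23 genes. Pard3, a gene of 549 kb on chromosome 8, held 6 higher regions of 241 to 5579 bp and 1 lower region of 624 bp, which together covered 11775 bp. The 3 widest of these lay at the start of the span in coordinates, and the lower region lay between the other higher ones. Ablim1, which encodes an actin-binding LIM protein, held 4 higher regions of 203 to 1810 bp on chromosome 19. Atrnl1, an attractin-like gene of 522 kb on the same chromosome, held the most regions of any distal gene, 5 higher and 3 lower. In Atrnl1 each of the 3 lower regions, of 481, 714 and 200 bp, followed a higher one at a gap of 6125, 7725 and 3746 bp. Stard13, a GTPase-activating protein gene on chromosome 5, held 3 higher regions.

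On chromosome 16 the genes with several regions were mostly of the higher list. Ttc3, which encodes a ubiquitin ligase with TPR repeats, held 4 higher regions of 935, 216, 1661 and 319 bp in a gene of 98.6 kb. Erg, an ETS transcription factor gene of endothelial and blood cells, held 4 of 891, 427, 547 and 652 bp, and the first of them crossed the gene's end. Dscam, a cell adhesion gene, held 3 of 637, 264 and 289 bp. Kcnj6 was divided, with 2 lower regions of 485 and 207 bp and 2 higher ones of 286 and 3296 bp. The lower regions of Kcnj6 lay together on the low-coordinate side of the higher ones. A stretch singled out after its values were seen, chr16:94283388-94442888, held 8 higher regions in a row from Hlcs through Pigp to Ttc3, and the next region, in the kinase gene Dyrk1a, was a lower one of 1088 bp.

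Among the other genes with 3 or more regions, Rptor, the mTORC1 scaffold, and Pcca, a subunit of propionyl-CoA carboxylase, held 3 higher regions each, as did Larp4, an RNA-binding protein gene of 46.3 kb. Ulk4 on chromosome 9, a kinase-like gene, held 4 higher and 1 lower. Pds5b, a cohesin regulator, and Gfra1, a receptor of GDNF, held 2 higher and 1 lower each. The same numbers were found for Mtus2, Ccdc91, Tmtc1 and the phosphatase-like gene Ptprn2. Rapgef5, a guanine nucleotide exchange factor gene, held 2 of each, all within chr12:117643814-117669954.

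The genes in which lower regions outnumbered higher ones were Ccnd1, Rbfox3, Camta1 and Krt78. Ccnd1 encodes cyclin D1, which drives the passage from G1 into S phase. It is 9.90 kb long, and 3 lower regions of 468, 456 and 664 bp lay inside it within chr7:144932405-144936342. Rbfox3, the splicing factor gene known as the neuronal marker NeuN, held 1 higher region of 1163 bp and 3 lower ones of 256, 200 and 317 bp. In Camta1, a transcription activator gene that crosses the 5 Mb line, 1 higher and 2 lower regions were inside the window. In Krt78, a keratin gene, a higher region of 568 bp stood between 2 lower ones of 200 bp.

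On the remaining chromosomes the leading gene held 1 or 2 regions. It was Rps6kc1 on chromosome 1, a kinase-like gene with 2 higher regions, Cdh4 on chromosome 2, which encodes R-cadherin, and Lrrc7 on chromosome 3, a gene of the postsynaptic density. Cdh4 and Lrrc7 held 1 higher and 1 lower each. It was Cd63 on chromosome 10, a tetraspanin gene at whose end lay a higher region of 3090 bp, and Parp8 on chromosome 13, with 1 higher region of 762 bp.

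Among the 519 regions, 44 neighbouring pairs had a gap under 10 kb. In 18 pairs both regions were higher, in 8 both were lower and in 18 (40.9%) they were of opposite lists. In the rest of the autosomes 330 of 861 such pairs (38.3%) were of opposite lists, so the shares of opposite pairs were close. Pairs with both regions lower made up a larger part of the distal pairs, 8 of 44 against 79 of 861. Pairs with both higher made up a smaller part, 18 of 44 against 452 of 861. These differences were not tested. Within genes, opposite pairs lay in Kcnab2 and Cdk11b on chromosome 4, Shank2 and Fadd on chromosome 7, Ulk4, Rapgef5, Mettl7a3, Krt78 and, 3 times, in Atrnl1. In Fadd, an adaptor of death receptors, a lower region of 947 bp and a higher region of 213 bp were 1609 bp apart. Pair genes were named because they hold an opposite pair, after their values were seen.

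The distal end of chromosome 7 carries the H19 to Kcnq1 domain of imprinted genes, whose alleles are expressed by parent of origin. Of 17 listed genes there, 3 held a region (17.6%), against 12 of 37 listed genes elsewhere (32.4%). This was near the 17.2% of all distal protein-coding genes and the 14.2% (18 of 127) of those at the distal end of chromosome 7. Kcnq1, a potassium channel gene of 320 kb, held 2 lower regions of 678 bp, chr7:143154782-143155459, and 394 bp, chr7:143302807-143303200. Both lay outside the span of Kcnq1ot1, the noncoding RNA transcribed within Kcnq1. Nap1l4, a histone chaperone gene, held 1 higher region of 1021 bp at its end. Dhcr7, the last enzyme of cholesterol synthesis, held a higher region of 251 bp inside it and a lower region of 1187 bp at its end. The growth factor genes Igf2 and Ins2, the noncoding RNA gene H19, the growth inhibitors Cdkn1c and Phlda2, and Ascl2, Th, Tspan32, Cd81, Tssc4, Slc22a18, Tnfrsf23 and Osbpl5, held none.

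Fibroblast growth factor genes held a region in 1 of 6 (16.7%), against 3 of 21 (14.3%) elsewhere and 17.2% of all distal protein-coding genes. Fgf10, a ligand of lung and limb budding on chromosome 13, held 1 higher region of 601 bp. Fgf3, Fgf4 and Fgf15, which stand side by side next to Ccnd1, held none, nor did Fgf14 or the co-receptor gene Kl. Fgf4 is the growth factor that embryonic stem cells make for their own exit from self-renewal. Lower regions were thus found in Ccnd1 and not in the growth factor genes beside it, whose spans are 3.86 to 4.74 kb.

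Transcription factors of embryonic lineages held a region in 5 of 34 (14.7%), against 6 of 27 elsewhere (22.2%) and 17.2% of all distal protein-coding genes. This list was chosen with earlier results of these data known. Elsewhere 3 of the 6 held higher and 4 held lower regions, with 1 holding both. Of all 188 protein-coding genes with a distal region, 106 held higher regions only. The 5 distal factors with a region all did so, which is a small number and was not tested. Besides Erg they were Prdm16, a regulator of brown fat and blood stem cells, with 2 of 1682 and 705 bp, Myt1, a neural zinc finger gene, with 1 of 661 bp, Foxk2, a forkhead gene, with 1 of 826 bp, and Atf7 with 1 of 455 bp. The 9 genes of the Hoxc cluster on chromosome 15, which pattern the body axis, held none. Nor did the short developmental genes Isl1, Zic2, Zic5, Cdx2, Pdx1, Gsx1, Sox18, Gata5, Vax1, Emx2 and Hes5. The factors with a region were 49.9 to 321 kb long and the Hoxc genes 1.78 to 18.8 kb, while Sp4, of 69.8 kb, and Ski, of 68.5 kb, held none.

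Among the listed neural adhesion and channel genes, 15 of 22 (68.2%) held a region at the distal ends and 10 of 20 (50.0%) elsewhere. The list was chosen with earlier results of these data known, and 22 of its 42 genes are distal. The 2 shares are therefore a description of the listed genes only. Many of these genes are long, with Ptprn2 at 792 kb and Gabrd at 13.1 kb, so their share is not comparable at like length with the 21.4% of all protein-coding genes. Higher regions were held by 12 and lower regions by 10, with 7 holding both. Kcnq1 is in this list as well as among the imprinted genes. Besides those above, Kcnh1, a potassium channel gene, held 2 higher regions of 200 bp each. Agrn, which encodes the agrin of neuromuscular synapses, held 1 lower region of 892 bp, and Disc1, a scaffold of neurons, 1 lower of 567 bp. Nrp1, a receptor of semaphorins and VEGF, held 1 higher of 208 bp, and Kcnj15 1 higher of 789 bp. Among the members with none were the long genes Negr1 and Nalcn, and Plxna2, Kcnk18 and Gabrd.

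Only 2 genes of telomere maintenance were in the windows. Zbtb48, which encodes a protein that binds telomere repeats, held 1 higher region of 205 bp on chromosome 4. Rtel1, a helicase that unwinds telomere loops, held none. No gene of the TET and O-GlcNAc list was in a distal window, so none of the distal regions lies in Ogt or in a Tet gene.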

How the data were processed

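CMS-IP and input libraries of Ogt iKO and control cells, 8 in 4 groups of 2, were grouped by their titles. The authors deposited 2 BED lists of genomic coordinates on mm10, named for higher and lower signal, with no score or count. The deposited name writes the knockout as OgtiTKO, read here as the Ogt iKO of the labels. Bismark and MACS2 were used, per the submitters' processing notes. Their roles, how signal was tested between groups and at which threshold, and how inputs, spike-ins and replicates entered that test are not given in the sources used here. Read depth per sample is unknown.

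BED starts count from 0 and are printed counting from 1. Chromosome lengths are those of the public mm10 assembly. Genes came from a RefSeq table of GRCm38.p6, with 47042 genes on the 19 chromosomes, 20665 of them protein-coding. A gene was distal if its midpoint was, and a region was assigned by its midpoint. R 4.3.3 ran the exact Mantel-Haenszel tests, and Python 3.11.15 with scipy 1.17.1 the sign and Fisher tests (Benjamini-Hochberg over 19 chromosomes or 3 classes). Procedures were tested on simulated data. Alternatives changed the window, width, merging, chromosome length, gene set or chromosomes.

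Genes named are those holding most distal regions on each chromosome or at least 3, those of the widest regions, those nearest to an end, and members of 6 lists. A few genes that this rule selects are not reported here. Genes of overlapped promoters were named after their values were seen. The regions and the gene lists were chosen with earlier results of these data known.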

Additional observations from a re-analysis of the deposited data

How the results depend on the processing

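The 12 results were recomputed under 51 alternatives, of which 34 kept direction and side of the threshold, and with each chromosome left out in turn for 3 of them. Higher regions were denser distally on 12 chromosomes with a window of 10 Mb, and on 10 with clusters merged within 100 kb, with wider regions (at least 453 bp), with the first 3 Mb counted and with the annotated span. That is a majority, in place of 9 of 19. Lower regions were denser on 6 with a window of 2 Mb and on 8 with wider regions. Higher regions were wider distally on 11 with 10 Mb, and on 4 with regions over 200 bp (p = 0.0192, exact sign test). Lower regions were wider on 12 with 2 Mb and on 12 with 10 Mb. Regions per gene were above the rest on 10 with 10 Mb and on 11 with clusters. The odds ratio of distal against proximal was 0.703 with 2 Mb, 0.935 with 10 Mb, 0.75 with clusters and 0.813 with wider regions, each with the exact Mantel-Haenszel p above 0.05 (0.158, 0.497, 0.0977 and 0.459). The causes were not tested.

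Leaving out chromosomes in turn, the odds ratio for direction ran from 0.810 (without chromosome 16, exact p = 0.0347) to 0.894 (without chromosome 7), for midpoints inside genes from 0.898 to 0.987, and for genes with a region from 0.725 (without chromosome 5) to 0.90 (without chromosome 10, exact p = 0.237). With the other alternatives genes with a region kept their call, from 0.627 with 2 Mb to 0.829 with 10 Mb. The alternative without olfactory and vomeronasal receptor genes was chosen after seeing the data.

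No paired analysis was possible because the lists hold no values per sample. For the same reason no replicate was left out and no stricter threshold was applied. GC and CpG content of the regions was not run, since no genome sequence was used here. Depth limits every region to an unknown degree.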

Other observations

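Noncoding genes at the distal ends held regions too. With spans extended by 1 kb, 66 held a distal region, 37 of them higher only, 28 lower only and 1 both. Over all autosomal regions 68.4% were higher. The share of noncoding genes with a region, at the distal ends or elsewhere, is not given, so these counts are a description. Some of these regions also lie in protein-coding genes. The one with the most bases covered was the long noncoding RNA gene 1500002C15Rik on chromosome 4, with 2 higher regions of 4350 bp together, both also counted in Ssu72. The next 3 by bases covered held 1 higher region each, the pseudogenes Gm29799 on chromosome 7, of 1583 bp, and Gm10120 on chromosome 10, of 1394 bp, and the long noncoding RNA gene AW011738 on chromosome 4, of 1361 bp. The region of Gm29799 is also counted in the protein-coding gene Syce1 and that of AW011738 in Perm1. These genes were named for the bases covered, after their values were seen.

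None of the 57 microRNA hairpins in the distal windows was overlapped by a region. Distal regions covered only 0.342% of the windows, and no share for hairpins elsewhere is given. The absence of overlap is therefore a description and no sign of avoidance. The nearest was Mir3086 on chromosome 19, 788 bp from a higher region, followed by Mir7k on chromosome 5, 1034 bp from a lower region. Mir6935 lay 2315 bp from a higher region on chromosome 11.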
